A study of Homo sapiens with 24 samples.

Results

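The response of SH-SY5Y cells to interferon gamma (IFN) in the presence of dextran-catechin (DC) was read from 6 of the 24 RNA sequencing libraries of the series, 3 from cells given DC together with IFN and 3 from cells given DC. Members were chosen by their treatment labels, and no measured value entered the choice. SH-SY5Y is an established human neuroblastoma line of adrenergic type, and DC is a conjugate of the flavonoid catechin with dextran that was used as a copper chelator. All 6 libraries came from cells harvested after 24 h of treatment, so both groups carried DC and differed by IFN alone. For comparison, 6 libraries of cells given IFN or left untreated, and 6 of cells given TEPA, a linear polyamine that also chelates copper, with or without IFN, were harvested at the same 24 h. The remaining 6 libraries of the series, untreated or copper-treated at 4 h, entered no comparison. They shared the gene filter, the scaling and the estimate of the spread in the fit. The labels give no doses, and nothing in them tells if libraries sharing a group came from separate cultures. The p-values therefore measure the spread between these libraries of 1 cell line, which may be technical.

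IFN gamma binds a receptor of the IFNGR1 and IFNGR2 chains, whose Janus kinases JAK1 and JAK2 phosphorylate transcription factors of the STAT family. STAT dimers then bind GAS elements in promoters and induce a first set of genes, among them the transcription factor IRF1, which with STAT2 and IRF9 acts on the ISRE elements of a wider set. The program is known for raising antigen presentation by MHC molecules and the ligand PD-L1, encoded by CD274, which engages the inhibitory receptor PD-1 of T cells, and neuroblastoma cells are known for low MHC class I at rest.

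The label was checked against CD274 and IRF1. CD274 stood at 74.5, 59.5 and 35.0 CPM with DC and IFN, against 1.35, 1.47 and 2.05 CPM with DC. All 3 IFN libraries lay far above all 3 without it, and the groups did not overlap (log2 fold change 5.11, SE 0.34, adjusted p 6.26e-10). IRF1 stood at 314, 280.3 and 234 CPM with DC and IFN, against 2.001, 2.42 and 1.92 CPM with DC. The groups were again fully separated (log2 fold change 7.02, SE 0.31, adjusted p 9.6e-13), so both markers went with the label. Levels are CPM, counts divided by the TMM-scaled library total and put on a common scale, and each adjusted p is that of edgeR's quasi-likelihood test with Benjamini-Hochberg adjustment over all 14654 genes tested, with a gene called when it was under 0.05. Each SE is the size of the log2 fold change divided by the square root of that test's F statistic. Where a gene had few counts with DC, such an SE can be smaller than counting error alone, and overstates the precision. In all 1439 called genes the libraries of both groups did not overlap. This also held for 4707 (32.1%) of all tested genes, so separate groups add nothing to a call.

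The windows from 250 bases before to 50 after the start of 6 induced genes are shown because they hold the elements through which STAT dimers, the complex that holds STAT2 and IRF9, and IRF1 are known to act. They were taken from RefSeq on GRCh38.p14 and are written 5′ to 3′ on the gene's own strand, with capitals marking each match on either strand to TTCNNNGAA (GAS) or to 2 copies of GAAA with any 2 bases between them (ISRE, which reads TTTC, 2 bases, TTTC on the other strand). The windows are chr9:5450292-5450591 (+ strand) for CD274, chr5:132490724-132491023 (- strand) for IRF1, chr14:24161015-24161314 (+ strand) for IRF9, chr6:32853655-32853954 (- strand) for TAP1, chr1:89065159-89065458 (- strand) for GBP1 and chr10:89327747-89328046 (+ strand) for IFIT3.
CD274: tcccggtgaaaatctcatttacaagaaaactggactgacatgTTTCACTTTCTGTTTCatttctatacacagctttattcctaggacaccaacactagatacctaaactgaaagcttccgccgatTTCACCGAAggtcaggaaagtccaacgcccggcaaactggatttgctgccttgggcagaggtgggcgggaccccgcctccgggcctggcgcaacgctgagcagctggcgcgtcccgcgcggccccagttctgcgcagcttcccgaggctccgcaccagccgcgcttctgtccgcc
IRF1: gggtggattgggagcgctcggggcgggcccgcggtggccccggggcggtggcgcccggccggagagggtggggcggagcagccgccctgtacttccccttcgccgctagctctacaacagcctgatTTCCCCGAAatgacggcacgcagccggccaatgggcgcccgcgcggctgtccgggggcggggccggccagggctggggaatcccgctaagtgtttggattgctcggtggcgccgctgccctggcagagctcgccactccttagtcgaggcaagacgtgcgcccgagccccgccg
IRF9: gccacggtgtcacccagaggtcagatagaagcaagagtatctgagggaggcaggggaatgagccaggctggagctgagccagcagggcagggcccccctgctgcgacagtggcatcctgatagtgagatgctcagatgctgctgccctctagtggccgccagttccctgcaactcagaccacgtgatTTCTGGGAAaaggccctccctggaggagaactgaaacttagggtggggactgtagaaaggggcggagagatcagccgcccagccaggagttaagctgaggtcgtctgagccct
TAP1: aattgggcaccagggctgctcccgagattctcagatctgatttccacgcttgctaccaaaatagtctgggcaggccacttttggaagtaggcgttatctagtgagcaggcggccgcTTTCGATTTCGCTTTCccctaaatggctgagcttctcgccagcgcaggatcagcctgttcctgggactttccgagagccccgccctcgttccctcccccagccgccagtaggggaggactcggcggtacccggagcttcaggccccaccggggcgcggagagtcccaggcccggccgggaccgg
GBP1: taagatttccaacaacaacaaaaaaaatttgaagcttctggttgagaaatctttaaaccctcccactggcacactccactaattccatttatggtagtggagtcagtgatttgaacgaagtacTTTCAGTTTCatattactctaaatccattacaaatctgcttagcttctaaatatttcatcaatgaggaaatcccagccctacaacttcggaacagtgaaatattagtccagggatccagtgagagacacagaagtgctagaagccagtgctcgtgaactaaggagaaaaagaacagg
IFIT3: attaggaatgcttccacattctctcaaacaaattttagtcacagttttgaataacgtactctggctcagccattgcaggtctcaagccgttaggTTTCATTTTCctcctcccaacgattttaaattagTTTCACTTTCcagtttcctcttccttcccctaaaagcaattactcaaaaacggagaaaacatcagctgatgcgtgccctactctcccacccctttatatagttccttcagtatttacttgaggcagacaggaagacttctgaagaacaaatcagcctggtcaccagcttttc
CD274 held 1 GAS match beginning 125 bases before the start and 2 ISRE matches at 208 and 202 bases before it, which overlap each other. IRF1 and IRF9 held 1 GAS match each, 124 and 63 bases before the start, and no ISRE match. TAP1 held 2 overlapping ISRE matches at 134 and 128 bases, GBP1 held 1 at 127, and IFIT3 held 2 at 156 and 122, with no GAS match in these 3 windows. No GAS match overlapped an ISRE match. Of the 35116 promoter windows in the table, 2689 (7.66%) held the GAS letters and 1255 (3.57%) the ISRE letters. These matches describe letters and do not show that a factor bound there. The genes shown were picked among named genes with a match. Other induced genes named below, such as STAT2, PSMB9 and WARS, held neither in their windows. Of the 228 genes raised at least 8-fold, 157 (68.9%) could be matched to a window, too few to compare motif shares between sets of genes.

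The 6 libraries held 24569980 to 33019188 counts each, with 16505 to 16951 genes detected. GC dependence was read as the median deviation of GC-rich genes (GC above 0.6) minus that of GC-poor genes (below 0.4). It was -0.20, -0.17 and 0.37 in log2 units in the libraries with DC and IFN, against -0.48, 0.20 and -1.03 in those with DC. The groups overlapped. The DC libraries were spread widely, and the third library with DC and IFN lay above the others of its group. A fit with the GC trend of each library removed called 3303 genes, 1857 higher and 1446 lower, and its counts are given below where it ends a call or changes a count by over 1.5 times. Of the 12 neuroblastoma line markers tested, 2 rose and 1 fell, or 2 and 2 with the GC trend removed, and their summed level was 3086 to 3206 CPM with DC and IFN, against 3074 to 3154 CPM with DC. In bulk RNA, a smaller share of responding cells and a smaller response per cell cannot be told apart.

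In the following, an IFN library is one of cells given DC with IFN, and a DC library one of cells given DC without it. IFN changed 1439 of the 14654 genes tested in DC-treated cells, 9.82% of them. Of these, 902 rose (6.16%) and 537 fell (3.66%), while the median log2 fold change of all tested genes was 0.01. The list counts below are to be read beside these shares. List counts with the GC trend removed have a larger background, 1857 of all tested genes higher and 1446 lower. The rises were the steeper side: 489 of the called genes rose and 114 fell by at least 2-fold, 228 rose and 4 fell by at least 8-fold, and 138 rose and 0 fell by at least 32-fold. The 228 genes that rose at least 8-fold took 3.61, 3.31 and 2.74% of all counts in the libraries with DC and IFN, against 0.114, 0.117 and 0.11% in those with DC. Because these genes were chosen from this contrast, their share is a description. Of the 228, 38 had no count in any DC library and 48 had 1 to 3 counts over the group. The third library with DC and IFN was the lowest of its group in this share and in many of the strongest genes. The third library was also the lowest in this share in cells given IFN without a chelator (4.01, 3.81 and 2.98%). The same held with TEPA and IFN (3.29, 3.3 and 2.82%). The labels do not say what the replicate numbers mark, and the cause of this pattern was not tested.

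**Figure D1:**
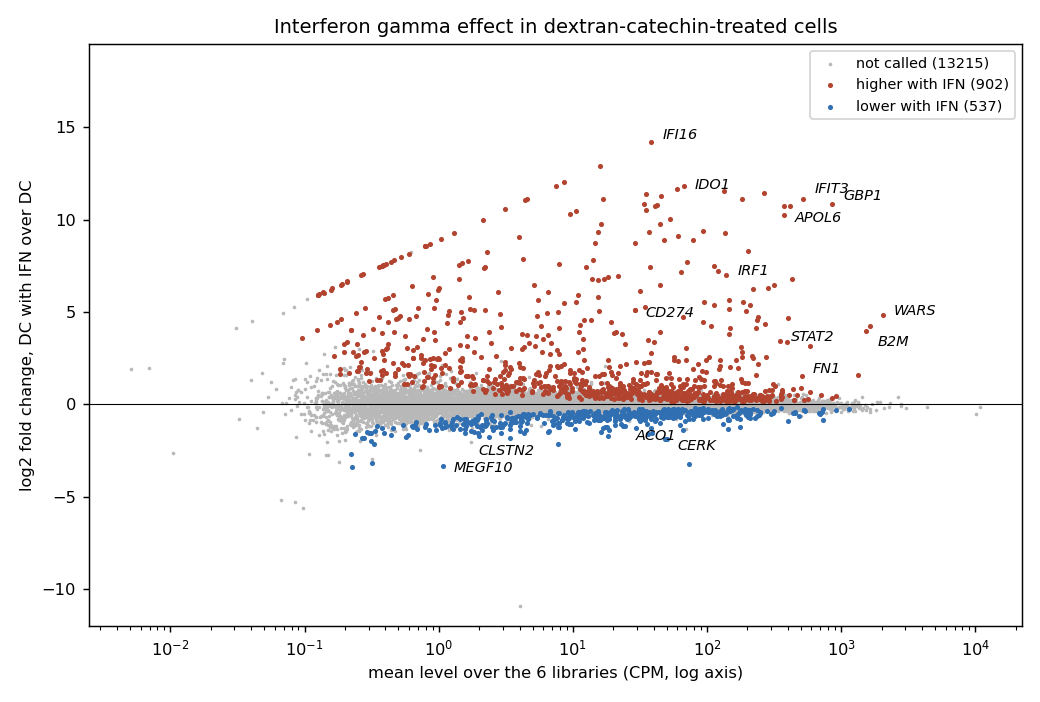
Each point is 1 of the 14654 genes tested, with the mean level over the 6 libraries on the x axis (CPM, log axis) and the log2 fold change of DC with IFN over DC on the y axis. The 902 genes called higher (red) reach far further from 0 than the 537 called lower (blue), and the straight diagonal edges on the left are genes with few or no counts in the DC libraries, whose fitted values depend on the prior count.

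Of the genes that receive and relay the signal, IFN raised the STAT factors and left most receptor and kinase genes uncalled. Among 8 receptor and Janus kinase genes, 2 rose, 0 fell and 6 were not called (median log2 0.16). JAK2, the kinase bound to IFNGR2, stood at 68.0, 58.8 and 37.97 CPM with DC and IFN, against 16.04, 14.3 and 18.3 CPM with DC (log2 fold change 1.76, SE 0.23, adjusted p 1.77e-05). IFNAR2, a chain of the type I interferon receptor, rose by 0.96 on the log2 scale. The IFN gamma receptor chains did not pass the test: IFNGR1 differed by -0.03 (adjusted p 0.927), IFNGR2 by 0.17 (adjusted p 0.0812, called by DESeq2 alone), and the kinase JAK1 by -0.03 (adjusted p 0.889).

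Of 6 STAT genes tested, 4 rose and 0 fell (median log2 2.69). STAT2, a part of the ISRE-binding complex, stood at 692, 661 and 575 CPM with DC and IFN, against 62.5, 61.3 and 56.7 CPM with DC (log2 fold change 3.42, SE 0.10, adjusted p 2.28e-15). All 3 of its IFN libraries lay above all 3 DC libraries. STAT3, activated by many cytokines, rose by 1.97 on the log2 scale (SE 0.11). Of 8 interferon regulatory factors tested, 5 rose, 1 fell and 2 were not called. IRF9, the DNA-binding partner of STAT2, was nearly equal in the 3 IFN libraries at 65.1, 65.5 and 68.0 CPM with DC and IFN, against 6.37, 6.40 and 5.11 CPM with DC (log2 fold change 3.47, SE 0.18, adjusted p 1.06e-11). IRF2, which competes with IRF1 for the same sites, rose by 1.72, and IRF7, a driver of type I interferon genes, by 4.99 (SE 0.79) from under 0.2 CPM. BATF2, an IFN-inducible partner of IRF1 in macrophages, rose to 32.5, 31.9 and 27.6 CPM, against 0.0364, 0.0577 and 0.0336 CPM with DC.

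Of 13 feedback inhibitors of the pathway, 3 rose, 0 fell and 10 were not called, with a median log2 of 0.04. SOCS1, which binds and inhibits JAK2, stood at 3.17, 2.15 and 1.47 CPM with DC and IFN, against 0.0727, 0.115 and 0.0336 CPM with DC (log2 fold change 4.82, SE 0.71, adjusted p 6.66e-05). SOCS3, an inhibitor of cytokine receptor signalling, stood at 11.4, 10.8 and 9.03 CPM with DC and IFN, against 2.98, 2.71 and 2.86 CPM with DC (log2 fold change 1.87, SE 0.19, adjusted p 6.86e-07). USP18, which restrains type I interferon signalling at IFNAR2, stood at 143, 128 and 112 CPM with DC and IFN, against 4.98, 5.04 and 4.51 CPM with DC (log2 fold change 4.72, SE 0.15, adjusted p 9.34e-15). The phosphatase PTPN2, which dephosphorylates JAK1, differed by 0.27 (adjusted p 0.303) with overlapping groups, and was called higher in the fit with the GC trend removed, where the list counted 5 higher and 3 lower.

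**Figure D2:**
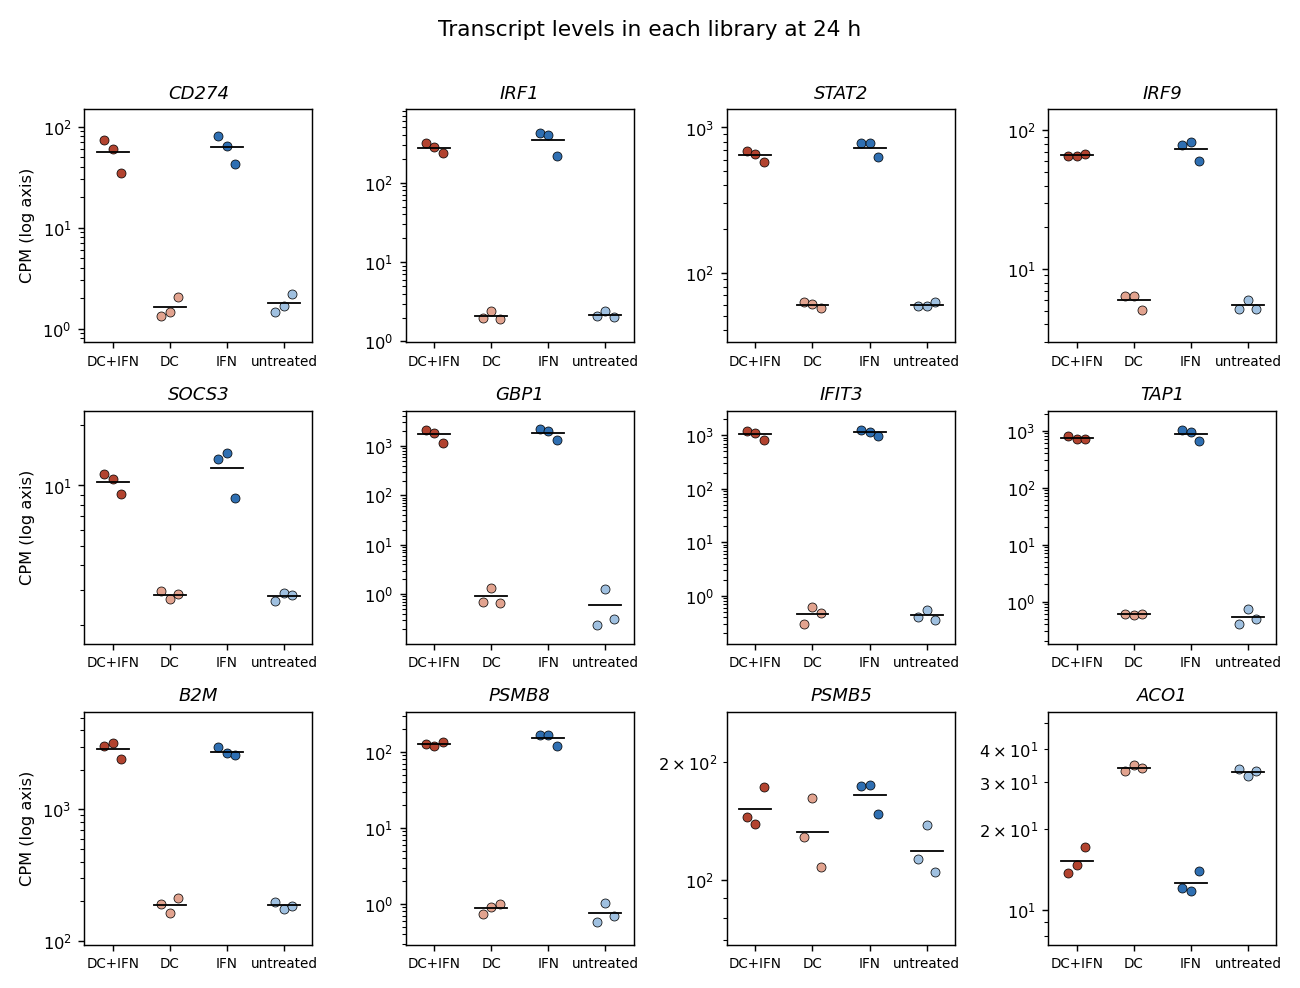
Transcript level of 12 genes in each library at 24 h (points) and the mean of the 3 libraries (line), in CPM on a log axis, for cells given DC with IFN, DC, IFN, or left untreated. CD274, IRF1 and STAT2 are high in every library with IFN and low in every library without it, PSMB5 overlaps between DC with IFN and DC, and ACO1 is lower in every library with IFN.

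Ligands of T-cell and phagocyte checkpoints were a mixed group around CD274: of 13 tested, 7 rose, 1 fell and 5 were not called (median log2 1.36). The member that fell, LGALS3, was not called without the third DC library. CD274 spanned 35.0 to 74.5 CPM in the IFN libraries, and leaving out any 1 of the 6 libraries kept its log2 fold change between 4.85 and 5.35. PDCD1LG2, encoding the second PD-1 ligand, stood at 1.04, 2.01 and 1.07 CPM with DC and IFN, against 0, 0.0288 and 0.0672 CPM with DC. It held 3 counts over the DC libraries, and its ratio was 42.2-fold (95% counting interval 14.1 to 207). CD47, the signal that restrains phagocytosis, stood at 277, 274 and 217 CPM with DC and IFN, against 96.4, 88.4 and 115 CPM with DC (log2 fold change 1.36, SE 0.18, adjusted p 1.61e-05). LGALS9, encoding galectin-9, stood at 5.46, 4.16 and 3.27 CPM with DC and IFN, against 0.0364, 0 and 0.0336 CPM with DC, a ratio of 192-fold (95% counting interval 52.9 to 1600). TNFRSF14, a ligand of BTLA, and CEACAM1, a ligand of TIM-3, also rose, to 2.21, 1.02 and 2.17 CPM and 6.46, 6.07 and 3.85 CPM, against 0, 0 and 0.0336 CPM and 0.0364, 0.115 and 0.0672 CPM with DC. CD276, encoding B7-H3, was abundant in both groups and did not pass the test (log2 0.25, adjusted p 0.427), and its sign changed with the GC trend removed. Of the NKG2D ligands, 2 of 8 were tested and MICB rose to 0.875, 0.882 and 0.704 CPM, against 0.0364, 0 and 0 CPM with DC.

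The machinery that loads peptides on MHC class I rose almost as a block: 13 of 16 tested members rose and 0 fell, with a median log2 of 5.27, or 4.98 with genes at 0 in DC held at their bound. TAP1, which pumps peptides into the endoplasmic reticulum and carries the ISRE letters shown above, stood at 798, 728 and 711 CPM with DC and IFN, against 0.618, 0.577 and 0.605 CPM with DC (log2 fold change 10.27, SE 0.27, adjusted p 5.31e-16). B2M, the light chain of class I molecules, stood at 3059.8, 3179 and 2422 CPM with DC and IFN, against 189, 162 and 212 CPM with DC (log2 fold change 3.94, SE 0.19, adjusted p 3.98e-12). NLRC5, the class I transactivator, rose to 152, 150.1 and 171 CPM, against 0.327, 0.317 and 0.336 CPM with DC. The peptide-trimming enzyme ERAP2 stood at 304, 293 and 222 CPM with DC and IFN, against 0.546, 0.432 and 0.336 CPM with DC (log2 fold change 9.28, SE 0.28, adjusted p 2.83e-15), and the peptide editor TAPBPL at 2.46, 2.68 and 3.33 CPM with DC and IFN, against 0, 0.0577 and 0 CPM with DC. Heavy-chain genes have near-identical sequences, which makes single values uncertain. HLA-B, a heavy chain with 3 counts over the DC libraries, rose to 101, 95.9 and 74.3 CPM, against 0, 0.0577 and 0.0336 CPM with DC.

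The proteasome changed most in its inducible parts, and some constitutive subunits rose by smaller amounts. Of 6 immunoproteasome and activator genes 5 rose (median log2 2.84), and of 15 constitutive subunits 4 rose and 11 were not called (median 0.39). In either list 0 fell, and 6.16% of all tested genes were called higher. With the GC trend removed 7 constitutive subunits rose. The constitutive subunits summed to 3015 to 3140 CPM with DC and IFN, against 2314 to 2351 CPM with DC. PSMB8, a catalytic subunit that replaces PSMB5, stood at 126, 120.2 and 136 CPM with DC and IFN, against 0.727, 0.922 and 1.01 CPM with DC (log2 fold change 7.16, SE 0.23, adjusted p 6.84e-15). PSMB9, its partner, stood at 80.2, 79.2 and 85.0 CPM with DC and IFN, against 0.109, 0.0288 and 0 CPM with DC (log2 fold change 10.74, SE 0.36, adjusted p 1.4e-14). PSMB5 itself stood at 144, 139 and 173 CPM with DC and IFN, against 129, 162 and 108 CPM with DC, with overlapping groups (log2 0.19, adjusted p 0.718). PSMB10 rose by 3.08 (SE 0.52), and the activator subunits PSME1 and PSME2 by 2.52 and 2.61. Among the constitutive subunits PSMA6 rose by 1.01 and PSMA3 by 0.88 on the log2 scale.

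MHC class II genes also rose, though at low levels: 9 of 14 tested members rose and 0 fell, with a median log2 of 5.59, or 2.99 with genes at 0 in DC held at their bound. CIITA, the class II transactivator, stood at 2.87, 3.56 and 2.45 CPM with DC and IFN, against 0, 0.0288 and 0 CPM with DC, a ratio of 270-fold (95% counting interval 48.1 to 10700). CD74, the invariant chain, stood at 5.96, 4.52 and 3.27 CPM with DC and IFN, against 0, 0.0288 and 0 CPM with DC, a ratio of 409-fold (95% counting interval 72.9 to 16200). HLA-DRA had no count in DC libraries and 143 counts over the IFN libraries, at least 51.5-fold higher with the DC libraries together set at a floor of 3 counts. These values stood on 1 or 0 counts in DC, and their counting intervals are wide. In cells given IFN without a chelator 12 of the same 14 passed the test. There 10% of all tested genes were called higher, against 6.16% with DC. In both settings 12 of the 14 had an unadjusted p under 0.05 in edgeR's test. The test of the difference between both effects called 0 of them.

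Every tested member of the antiviral list rose, 43 of 43, with a median log2 of 6.76. IFIT3, an RNA-binding antiviral protein, stood at 1193, 1118 and 821 CPM with DC and IFN, against 0.291, 0.605 and 0.471 CPM with DC (log2 fold change 11.12, SE 0.31, adjusted p 1.08e-15). OAS2, a sensor enzyme of double-stranded RNA, stood at 688, 567 and 338 CPM with DC and IFN, against 0.109, 0.259 and 0.168 CPM with DC (log2 fold change 11.46, SE 0.41, adjusted p 3.47e-14). XAF1, a pro-apoptotic antagonist of XIAP, stood at 312, 285 and 208 CPM with DC and IFN, against 0.0364, 0.173 and 0.0336 CPM with DC (log2 fold change 11.53, SE 0.32, adjusted p 1.08e-15). In all 3 the third IFN library was the lowest, and still far above every DC library. RTP4, which had no count with DC, reached 17.04, 17.5 and 10.1 CPM, at least 444-fold higher. IFITM1, which blocks viral entry and shares sequence with its neighbours, reached 72.2, 70.1 and 67.8 CPM, against 2 counts over the DC libraries, and MX2, a dynamin-like restriction factor, reached 108, 89.5 and 55.8 CPM, against 0, 0.0577 and 0.0672 CPM with DC. Outside the lists, RARRES3, a growth-suppressing phospholipase, had no count with DC and reached 38.8, 31.8 and 24.7 CPM, at least 951-fold higher.

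The guanylate-binding proteins, GTPases that attack vacuoles of intracellular microbes, rose in 6 of 6 tested members (median log2 6.12). GBP1 stood at 2114, 1873 and 1165 CPM with DC and IFN, against 0.691, 1.35 and 0.672 CPM with DC (log2 fold change 10.85, SE 0.44, adjusted p 2.45e-13), though reads shared with the pseudogene GBP1P1 make its level uncertain. GBP2 and GBP4 rose by 5.37 and 5.52 on the log2 scale. GBP5 varied most among the IFN libraries, at 53.3, 25.02 and 12.4 CPM with DC and IFN, against 0.255, 0.231 and 0.370 CPM with DC, with the first library high and the third low. The APOL family, channel-forming apolipoproteins, rose in 5 of 5 tested members, with the highest list median of all at 10.73. APOL6 stood at 838, 778 and 617 CPM with DC and IFN, against 0.364, 0.461 and 0.471 CPM with DC (log2 fold change 10.73, SE 0.23, adjusted p 4.84e-17), the smallest adjusted p in the comparison. APOL1, the trypanosome lytic factor, stood at 410.2, 355 and 324 CPM with DC and IFN, against 0.145, 0.231 and 0.101 CPM with DC.

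Nuclear body and TRIM genes rose in 13 of 13 tested members (median log2 3.05). SP100, a component of PML bodies, stood at 137, 124 and 94.4 CPM with DC and IFN, against 0, 0.0577 and 0.0336 CPM with DC, a ratio of 3570-fold (95% counting interval 1220 to 17300). PML rose by 3.27 and the antibody receptor TRIM21 by 3.93 on the log2 scale. Of 6 PARP and DTX3L genes 5 rose (median 3.72), among them the partners PARP9 and DTX3L, which modify histones together, by 3.83 and 4.36.

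**Figure D3:**
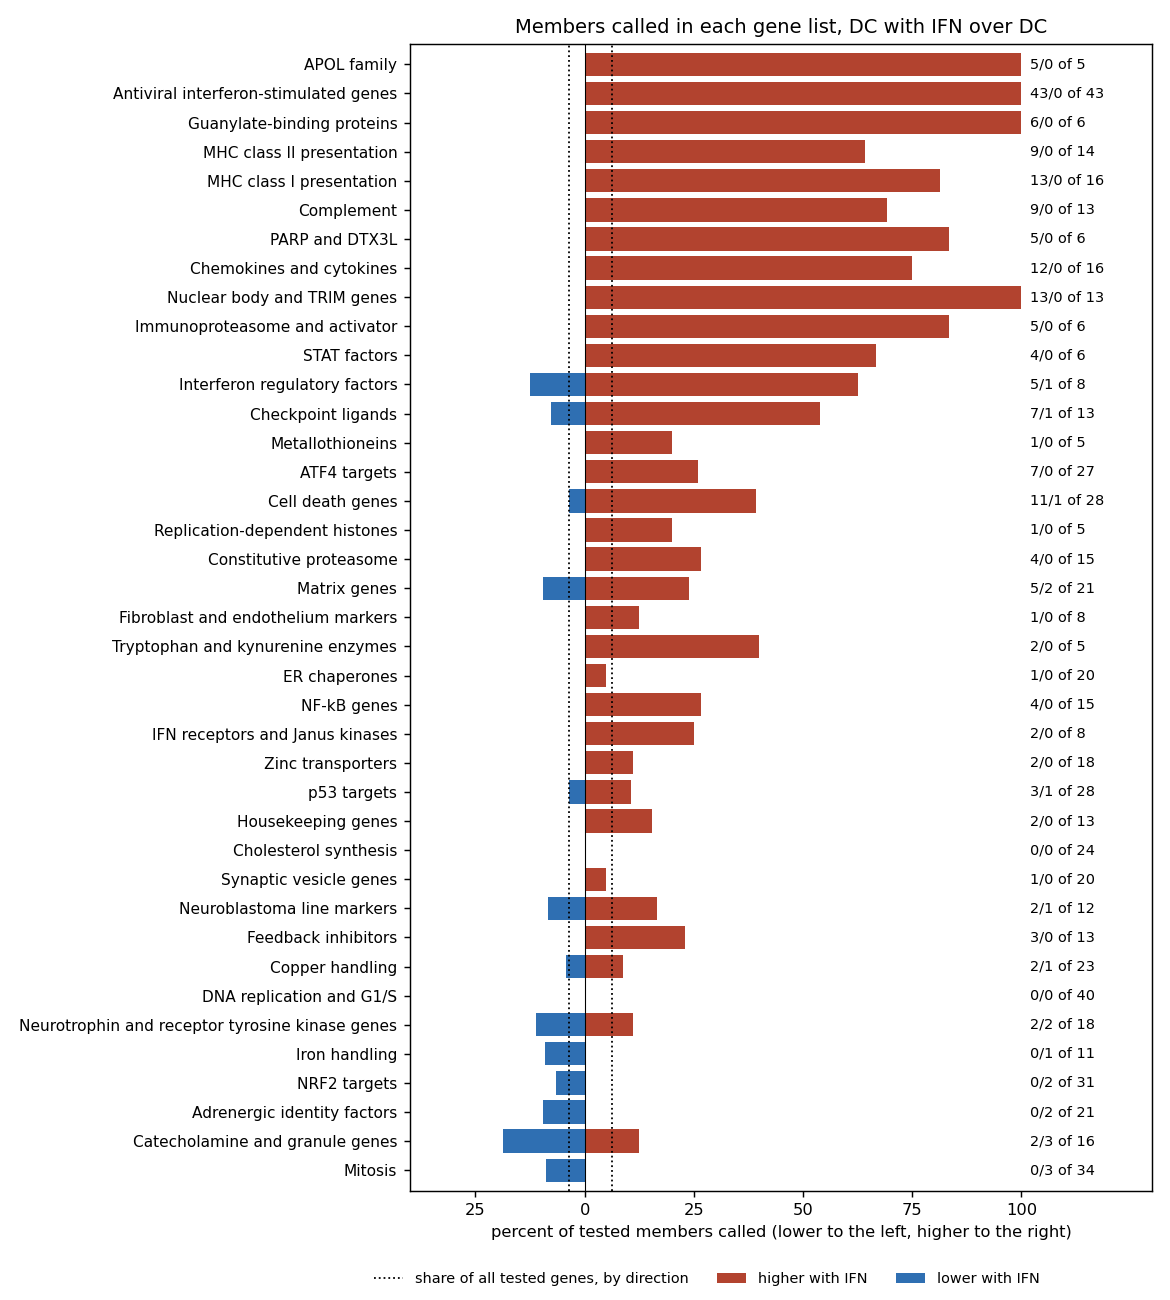
Percent of the tested members of each gene list with at least 5 tested members that were called higher (red, to the right) or lower (blue, to the left) in cells given DC with IFN over DC, ordered by the list's median log2 fold change, with counts of higher and lower members at the right. The dotted lines mark the 6.16% called higher and 3.66% called lower among all tested genes. Antiviral, guanylate-binding, APOL and nuclear body lists reach 100%, and the lists for copper handling, NRF2 targets and DNA replication lie near or below the lines.

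Secreted factors rose widely, with 12 of 16 tested chemokines and cytokines higher and 0 lower (median log2 3.58). CXCL10, a ligand of the T-cell receptor CXCR3, had no count with DC and reached 29.5, 13.1 and 9.27 CPM, at least 498-fold higher. CXCL9 and CXCL11, ligands of the same receptor, reached 109.6, 56.0 and 45.4 CPM and 32.6, 17.96 and 12.8 CPM, against 0.0364, 0.0865 and 0 CPM and 0.0364, 0 and 0 CPM with DC. All 3 ligands were highest in the first IFN library and lowest in the third. CSF1, the growth factor of macrophages, stood at 32.4, 31.8 and 27.1 CPM with DC and IFN, against 1.16, 0.894 and 0.706 CPM with DC (log2 fold change 5.04, SE 0.27, adjusted p 2.43e-11). Complement genes rose in 9 of 13 tested members and fell in 0 (median 5.13), or 10 and 2 with the GC trend removed, with C1S, a protease of the classical pathway, at 51.4, 40.6 and 37.1 CPM with DC and IFN, against 0.4001, 0.317 and 0.336 CPM with DC, and CFB, of the alternative pathway, at 10.4, 9.49 and 5.60 CPM with DC and IFN, against 0, 0 and 0.101 CPM with DC. C4A stood at 66.5, 62.6 and 56.9 CPM with DC and IFN, against 0.837, 0.980 and 0.841 CPM with DC, but its near-identical copy C4B makes it uncertain.

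NF-kB genes moved less, with 4 of 15 tested members higher and 0 lower (median log2 0.18), beside 6.16% and 3.66% of all tested genes. Leaving out any 1 library left 2 or 3 of them called, and removing the GC trend gave 7. ICAM1, an adhesion molecule for leukocytes, stood at 35.0, 27.5 and 19.3 CPM with DC and IFN, against 0.291, 0.231 and 0.202 CPM with DC (log2 fold change 6.80, SE 0.41, adjusted p 1.71e-10). Of 5 tryptophan enzymes, 2 rose and 3 were not called. IDO1, which starts tryptophan breakdown to kynurenine, stood at 209, 126 and 67.6 CPM with DC and IFN, against 0, 0.0288 and 0.0672 CPM with DC, a ratio of 3890-fold (95% counting interval 1330 to 18900). WARS, the tryptophanyl-tRNA synthetase, stood at 4737, 3904 and 3274 CPM with DC and IFN, against 142, 156 and 126 CPM with DC (log2 fold change 4.82, SE 0.18, adjusted p 4.42e-14). In both genes the first IFN library was the highest and the third the lowest, with no overlap with DC.

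Of 28 cell death genes tested, 11 rose, 1 fell and 16 were not called (median log2 0.48), beside 6.16% higher and 3.66% lower among all tested genes. With the GC trend removed 17 of the list rose. CASP1, the inflammasome protease, stood at 22.9, 20.5 and 13.6 CPM with DC and IFN, against 0.0364, 0 and 0 CPM with DC, a ratio of 1700-fold (95% counting interval 305 to 67300). CASP4 and CASP8 rose by 3.76 and 3.09 on the log2 scale. MLKL, which ruptures the membrane in necroptosis, stood at 64.5, 56.8 and 48.8 CPM with DC and IFN, against 1.93, 1.56 and 1.48 CPM with DC (log2 fold change 5.10, SE 0.18, adjusted p 2.89e-14). FAS, the death receptor, stood at 15.4, 14.4 and 11.6 CPM with DC and IFN, against 2.36, 1.79 and 2.08 CPM with DC (log2 fold change 2.73, SE 0.24, adjusted p 6.89e-08). IFI16, a nuclear DNA sensor, had no count with DC and reached 94.7, 83.1 and 52.96 CPM, at least 2290-fold higher.

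Falls were fewer and smaller. MEGF10, an engulfment receptor, stood at 0.167, 0.212 and 0.184 CPM with DC and IFN, against 2.26, 1.73 and 1.92 CPM with DC (log2 fold change -3.36, SE 0.40, adjusted p 4.94e-06). CLSTN2, a synaptic calsyntenin, stood at 2.87, 2.65 and 3.12 CPM with DC and IFN, against 12.8, 13.3 and 11.7 CPM with DC (log2 fold change -2.13, SE 0.19, adjusted p 6.29e-08). CERK, the ceramide kinase, stood at 18.9, 22.4 and 23.4 CPM with DC and IFN, against 81.1, 82.5 and 72.1 CPM with DC (log2 fold change -1.86, SE 0.14, adjusted p 5.66e-09). MTURN, a regulator of neural progenitor differentiation in frog embryos, fell by 1.85, GFRA3, the artemin co-receptor, by 1.83, MRAP2, a partner of melanocortin receptors, by 1.71, and LONRF2 by 1.59 on the log2 scale. Among long non-coding RNAs, which the naming rule left out, LINC00641 was picked after its values were seen, at 14.0, 15.5 and 12.5 CPM with DC and IFN, against 134.6, 119 and 146 CPM with DC (log2 fold change -3.25, SE 0.18, adjusted p 4.53e-11).

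Neuroblastoma identity and lineage genes were counted beside the 6.16% called higher and 3.66% called lower among all tested genes. The background with the GC trend removed was 1857 genes higher and 1446 lower. Of 21 adrenergic identity factors 0 rose and 2 fell (median log2 -0.08): PBX3 by 0.50 and TFAP2B by 0.41 on the log2 scale. With the GC trend removed 2 rose and 3 fell. HAND2, a factor of sympathetic neuron development, stood at 389, 397 and 351 CPM with DC and IFN, against 374, 324 and 358 CPM with DC and did not pass the test (log2 0.11, adjusted p 0.577). Of 16 catecholamine and granule genes 2 rose, 3 fell and 11 were not called, and 0 were called higher without the first or the third DC library, or the first or the third IFN library. With the GC trend removed 0 rose and 5 fell. DDC, which makes dopamine, stood at 47.0, 49.6 and 52.7 CPM with DC and IFN, against 76.3, 74.2 and 74.9 CPM with DC (log2 fold change -0.59, SE 0.08, adjusted p 2e-05). The prohormone processor CPE fell by 0.49 and the vesicular monoamine transporter SLC18A2 by 0.89. VGF, a granule peptide precursor, was called higher at an adjusted p of 0.049, and this call was lost with any library but the second DC library left out, and with the GC trend removed. NCAM1, an adhesion molecule of neural cells, fell by 0.45 and ELAVL4, a neuronal RNA-binding protein, rose by 0.52. STMN2 stood at -0.41 with an adjusted p of 0.0571. Of 18 neurotrophin and receptor tyrosine kinase genes 2 rose and 2 fell, or 4 and 5 with the GC trend removed. RET, a kinase of the lineage, stood at 467, 416 and 446 CPM with DC and IFN, against 295, 263 and 272 CPM with DC (log2 fold change 0.68, SE 0.08, adjusted p 9.29e-06). IGF1R rose by 0.46, KIT fell by 0.74, and EGFR did not pass the test (0.14, adjusted p 0.415).

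Matrix genes changed in both directions, with 5 of 21 tested members higher, 2 lower and 14 not called (median log2 0.36). Among all tested genes 6.16% were called higher and 3.66% lower. Leaving out the first or the third DC library, or the first or the third IFN library, left 3 higher. FN1, encoding fibronectin, stood at 770.0, 683 and 805 CPM with DC and IFN, against 268, 266 and 252 CPM with DC (log2 fold change 1.52, SE 0.08, adjusted p 1.61e-11). TNC, encoding tenascin C, stood at 144, 127 and 179 CPM with DC and IFN, against 36.7, 69.0 and 29.7 CPM with DC (log2 fold change 1.73, SE 0.37, adjusted p 0.00314), with the second DC library above the others of its group. LAMA1 rose by 0.73 and COL4A1 by 0.79, the call of COL4A1 being lost without any 1 library other than the second DC library. TIMP3, an inhibitor of matrix proteases, fell by 1.02 on the log2 scale.

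Targets of the stress factor ATF4 rose in 7 of 27 tested members, fell in 0 and were not called in 20 (median log2 0.48), beside 6.16% of all tested genes higher. The count of rises was 3 without the first IFN library, 4 without the third DC library and 13 with the GC trend removed. IFN without a chelator raised 14 of the 27 (median 0.8), beside 10% of all tested genes. IFN with TEPA raised 21 (median 1.04), beside 7.28%. The difference of effects called 0 of the 27 in edgeR's test, against either setting. ATF3, a stress-induced repressor, stood at 36.4, 28.8 and 23.1 CPM with DC and IFN, against 11.5, 9.57 and 8.04 CPM with DC (log2 fold change 1.60, SE 0.21, adjusted p 2.16e-05). DDIT3, encoding CHOP, stood at 21.5, 17.1 and 14.2 CPM with DC and IFN, against 8.91, 7.495 and 5.55 CPM with DC (log2 fold change 1.27, SE 0.28, adjusted p 0.00405). CEBPB rose by 1.42 and TRIB3 by 0.91, and both calls were lost with the GC trend removed. ASNS rose by 0.48, called at an adjusted p of 0.0327 and lost without any 1 library other than the third IFN library.

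Genes of metal handling, the processes a copper chelator bears on, were counted in 4 lists, beside 6.16% called higher and 3.66% called lower among all tested genes. Counts with the GC trend removed stand beside 1857 of all tested genes higher and 1446 lower in that fit. Of 23 copper genes 2 rose, 1 fell and 20 were not called (median log2 -0.01), with 4 higher and 2 lower once the GC trend was removed. SLC31A1, the main copper importer, stood at 135.2, 129 and 127 CPM with DC and IFN, against 112, 107 and 118 CPM with DC and did not pass the test (log2 0.22, adjusted p 0.185), although it did with the GC trend removed. SCO1, which delivers copper to cytochrome oxidase, rose by 0.41, a call lost without the first DC or the first IFN library. APP, a copper-binding membrane protein, rose by 0.32, and LOX, a copper-dependent crosslinking enzyme, fell by 0.70. MT2A, a metallothionein whose copies make it uncertain, stood at 4.50, 3.88 and 4.83 CPM with DC and IFN, against 0.291, 0.346 and 0.235 CPM with DC (log2 fold change 3.89, SE 0.54, adjusted p 3.6e-05). It was the 1 of 5 tested metallothioneins that was called. Among 18 zinc genes 2 rose, MTF1, the metal-responsive factor, by 0.43 and the transporter SLC39A14 by 0.29, and 0 fell, or 4 and 2 with the GC trend removed.

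Of 11 iron genes 0 rose and 1 fell, or 2 and 2 with the GC trend removed. ACO1, encoding the cytosolic aconitase that doubles as an iron sensor, stood at 13.8, 14.8 and 17.1 CPM with DC and IFN, against 33.0, 34.6 and 33.8 CPM with DC (log2 fold change -1.15, SE 0.09, adjusted p 1.89e-08), with no overlap. TFRC, the transferrin receptor, stood at 389, 409 and 368 CPM with DC and IFN, against 525, 473 and 589 CPM with DC (log2 -0.44, adjusted p 0.0983) and was called lower with the GC trend removed. FTH1, the ferritin heavy chain, differed by -0.11 (adjusted p 0.427). Targets of NRF2, the oxidative stress factor, fell in 2 of 31 tested members and rose in 0 (median log2 -0.07). Among all tested genes 3.66% were called lower and 6.16% higher. With the GC trend removed 3 of the NRF2 targets fell and 3 rose, beside 1446 of all tested genes lower and 1857 higher. The 2 that fell in the TMM-scaled fit were AKR1C1 and AKR1C2, near-identical reductases whose reads cannot be kept apart, and 1 call was left without the first DC library or any 1 IFN library. NQO1 differed by -0.16 (adjusted p 0.649) and HMOX1 by 0.13 (adjusted p 0.884), with overlapping groups. The cystine importer SLC7A11 stood at 43.1, 46.5 and 35.3 CPM with DC and IFN, against 62.6, 47.9 and 58.9 CPM with DC and did not pass the test (log2 -0.44, adjusted p 0.257).

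Mitotic genes were lower in 3 of 34 tested members and higher in 0 (median log2 -0.24), beside 3.66% lower among all tested genes. With the GC trend removed 18 fell, in a fit of the 24 h libraries alone 12, and without the first IFN library 1. Over all tested genes 537 were called lower, against 1446 with the GC trend removed and 877 in the 24 h libraries alone. CCNB2, a mitotic cyclin, stood at 90.9, 97.1 and 95.8 CPM with DC and IFN, against 127, 116 and 136 CPM with DC (log2 fold change -0.42, SE 0.11, adjusted p 0.018). MKI67 stood at 761, 692 and 756 CPM with DC and IFN, against 911, 862 and 800.0 CPM with DC (log2 -0.22, adjusted p 0.0814). Replication genes were called in 0 of 40 members by edgeR's test, DESeq2 and limma-voom, with 4 at an unadjusted p under 0.05 in edgeR's test and a median of -0.02.

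Markers of other cell types were also counted, beside 6.16% called higher and 3.66% called lower among all tested genes, or 1857 and 1446 genes with the GC trend removed. Their part in the results was not tested. Schwann cell markers were called in 0 of 4 tested members by edgeR's test, with 2 at an unadjusted p under 0.05 (1 lower by limma-voom and with the GC trend removed) and summed to 73.7 to 74.3 CPM with DC and IFN, against 62.8 to 70.7 CPM with DC. Fibroblast and endothelium markers summed to 812 to 960 CPM with DC and IFN, against 650.2 to 856 CPM with DC. Of the 8 tested 1 rose, or 3 with the GC trend removed. The 1 that rose was ACTA2, at 14.4, 11.7 and 11.2 CPM with DC and IFN, against 2.66, 3.81 and 2.32 CPM with DC. ACTA2 overlaps FAS on the opposite strand, and with the strand setting of the counting unknown their reads cannot be told apart. Of 9 leukocyte markers 2 were tested and CD68, a lysosomal protein, rose by 2.02 on the log2 scale, a call lost without any 1 library other than the second DC library. The 9 leukocyte markers summed to 5 to 6.73 CPM with DC and IFN, against 1.34 to 2.74 CPM with DC.

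The effect of IFN with DC was set against its effect without a chelator, measured in 6 other libraries, so that no library was shared. IFN without a chelator changed 2761 genes (18.8% of those tested), 1471 higher (10%) and 1290 lower (8.8%). The test of the difference between both effects called 0 of 14654 genes in edgeR, where 142 had an unadjusted p under 0.05 and the smallest adjusted p was 0.918. DESeq2 called 2 and limma-voom 0. The larger count without a chelator is thus not by itself a difference of effects. Of the genes called with DC, 1325 were also called without a chelator, all in the same direction, which is 92.1% of the list with DC and 48.0% of the list without. Over all 14654 genes the fold changes had a Pearson r of 0.87, a description across genes, which are not independent.

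**Figure D4:**
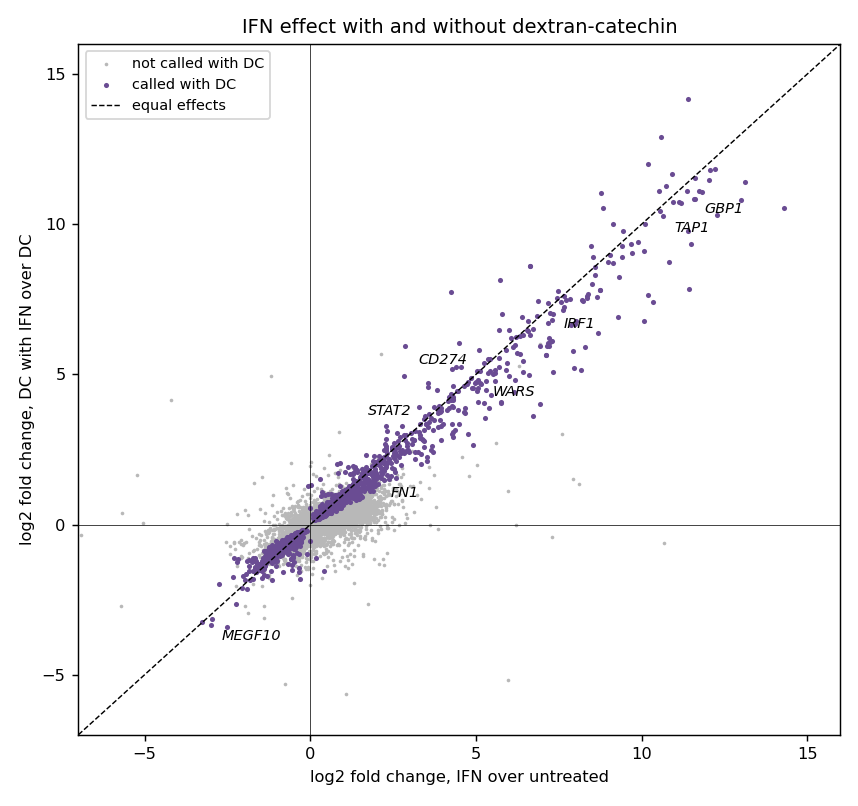
Log2 fold change of IFN in cells given DC (y axis, DC with IFN over DC) against that without a chelator (x axis, IFN over untreated) for the 14654 genes tested, with genes called with DC in purple. The 1325 genes called in both changed in the same direction in both settings, and the dashed line marks equal effects. Among genes changed at least 2-fold by IFN with TEPA, the median difference, DC minus no chelator, was -0.28 for raised and 0.2 for lowered genes.

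The intervals of single genes differed in width. The effect on CD274 with DC minus that without was -0.01 (SE 0.44, 95% interval -0.93 to 0.90), where IFN without a chelator gave 80.6, 64.2 and 43.0 CPM, against 1.46, 1.68 and 2.20 CPM in untreated cells. For IRF1 the difference was -0.30 (SE 0.38, 95% interval -1.09 to 0.50), for B2M 0.05 (SE 0.24, 95% interval -0.45 to 0.55) and for TAP1 -0.38 (SE 0.38, 95% interval -1.18 to 0.43). For PSMB8 it was -0.46 (SE 0.31, 95% interval -1.11 to 0.19) and for WARS -0.24 (SE 0.21, 95% interval -0.69 to 0.20). Across all tested genes, 9593 intervals (65.5%) lay within 1 log2 unit of 0. FN1 had 1 of the smallest p-values in this difference. Its rise was 1.52 with DC and 1.97 without, a difference of -0.45 (SE 0.11, 95% interval -0.68 to -0.22), an unadjusted p of 0.000628 and an adjusted p of 0.918, so it did not pass.

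To compare effect sizes on genes picked in neither setting, 540 genes raised and 193 lowered at least 2-fold by IFN in the TEPA libraries were followed. The raised genes had a median log2 fold change of 2.38 with DC and 2.66 without a chelator. The median of the difference was -0.28 (quartiles -0.65 and -0.01), beside 0.01 over all tested genes. With DC 466 of the 540 were called higher, and without a chelator 519, beside 6.16% and 10% of all tested genes. The lowered genes had medians of -0.98 with DC and -1.2 without, a median difference of 0.2. Of the 193, 111 were called lower with DC and 148 without, beside 3.66% and 8.8% of all tested genes. The median difference of the raised genes was -0.17 with the GC trend removed, and between -0.42 and -0.16 with each of the 12 libraries left out, the end nearest 0 being without the first library given IFN and no chelator. The median deviation of GC-rich minus GC-poor genes averaged 0.00 with DC and IFN, against -0.44 with DC, and 0.46 with IFN, against -0.70 in untreated cells, and its part in the difference was not tested. These are descriptions of a set, and 20 of the 540 had a 95% interval of the difference that left out 0. Of all 14654 tested genes, 142 had an unadjusted p under 0.05 in edgeR's test of this difference.

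Against TEPA, the difference of the IFN effect again called 0 genes in edgeR, with 199 at an unadjusted p under 0.05 and a smallest adjusted p of 0.615, while DESeq2 called 1. That gene was SLC7A11, whose IFN effect was -0.44 with DC and 1.17 with TEPA, a difference of -1.61 (SE 0.30, 95% interval -2.25 to -0.97). Its adjusted p was 0.615 in edgeR's test, 0.00337 in DESeq2, 0.00724 in the 24 h libraries alone and 0.00089 with the GC trend removed. It was 0.97 in limma-voom, 0.551 with RLE size factors and 0.0611 with the replicate block. SLC7A11 passed in 4 of 22 alternatives and failed in 18, among them every fit with 1 library left out. SLC7A11 stood at 31.2, 33.7 and 26.0 CPM with TEPA and IFN, against 14.2, 12.4 and 13.8 CPM with TEPA. ATF3 rose by 1.60 with DC and by 2.92 with TEPA, a difference of -1.32 (SE 0.30, 95% interval -1.94 to -0.70). This did not pass the adjustment in edgeR's test (adjusted p 1.0), with the GC trend removed (adjusted p 0.173) or in DESeq2 (adjusted p 0.121). It did pass in edgeR's test with the replicate block, without and with the GC trend removed (adjusted p 0.0292 and 0.00328). For CD274 the difference was -0.18 (SE 0.43, 95% interval -1.08 to 0.72). IFN with TEPA changed 2076 genes (14.2%), 1067 higher (7.28%) and 1009 lower (6.89%).

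**Figure D5:**
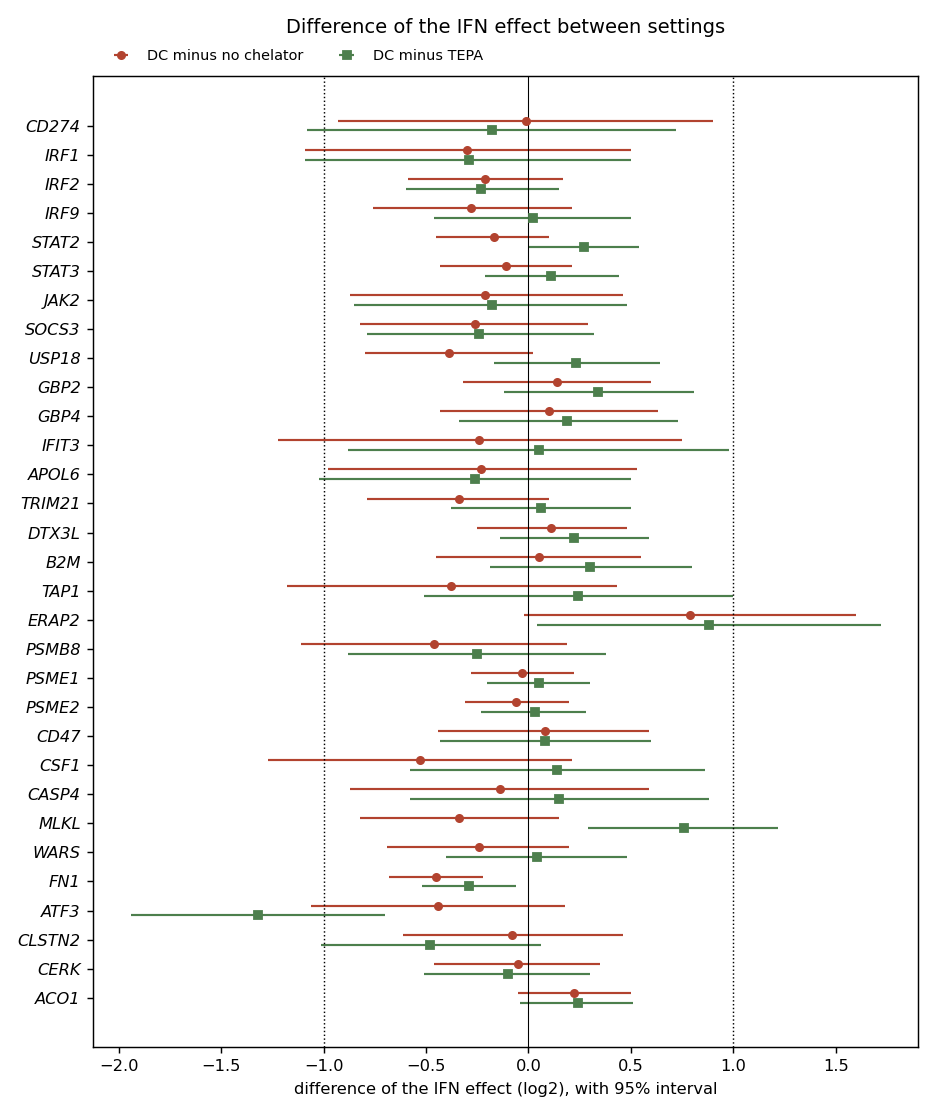
Difference of the log2 IFN effect for 31 genes with counts in every group, with DC minus without a chelator (red circles) and with DC minus with TEPA (green squares), each with its 95% interval from the fit; dotted lines mark 1 log2 unit. CD274 is at -0.01 and -0.18, FN1 at -0.45 and -0.29, and ATF3 at -0.44 and -1.32, and no gene passed the adjustment of edgeR's test in either difference.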

How the data were processed

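Transcript levels were measured by RNA sequencing of SH-SY5Y cells, and libraries were grouped by the treatment in their labels. The authors deposited raw counts, all whole numbers, for 26485 gene symbols in 24 libraries. Library preparation used a stranded mRNA kit, per the labels' protocols, and STAR 2.5a, RSEM 1.2.31 and build hg38 are named in the submitters' processing notes. The annotation release, the strand setting of the counting and any filter are not given in the sources used here, so antisense genes are not named and overlapping genes cannot be told apart. Gene locations and GC content came from GENCODE 29, matched for 23887 symbols (90.2%), and 93.6% of tested genes had a GC content.

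In R 4.3.3, genes were filtered with filterByExpr of edgeR 4.0.16 (minimum count 10), which left 14654, and libraries were scaled with TMM factors. edgeR's quasi-likelihood model with 1 mean per group was fitted to all 24 libraries (16 residual degrees of freedom, common biological coefficient of variation 0.207), and tested DC with IFN minus DC, the IFN effects without a chelator and with TEPA, and both differences of effects. Calls needed an adjusted p under 0.05 (Benjamini-Hochberg over all tested genes). The script was tested on simulated data first. Counts of 0 in all libraries of a group were set at a floor of 3 counts over the group for a bound of the fold, and groups of 1 to 3 counts got a ratio with a 95% interval. Totals, floors and counting intervals cover counting error only. SEs and intervals of log2 values were derived from the log2 value and the test's F statistic, which uses the spread between libraries. They can be too narrow for genes with few counts in a group.

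The members, the 44 gene lists and the genes named were chosen with earlier results of these data known. The members themselves follow from the treatment labels, and no measured value selected a library. Lists are described by counts and medians, with no test of the list. Genes were named by a rule: the 12 largest rises and falls among called genes that averaged 1 CPM or more and had separate groups, up to 6 called and 4 uncalled members of each list, and a standing set of pathway genes, of which some are not reported here; LINC00641 and genes called by DESeq2 alone lay outside it. Alternatives were RLE size factors, DESeq2 1.42.0, voom of limma 3.58.1, no filter, a filter of 1 CPM, fits of fewer libraries, a replicate block, a per-library GC trend removed as an offset (lowess, span 0.3), and each library left out.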

Additional observations from a re-analysis of the deposited data

How the results depend on the processing

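Of 127 genes named for IFN in DC-treated cells 110 were called, 90 of them in every alternative, 20 were lost in at least 1, and 7 of 17 uncalled genes were gained in at least 1. With each library left out the count of called genes ran from 1087 to 1448 (679 to 820 higher, 403 to 628 lower). It was 3303 with the GC trend removed (1857 higher, 1446 lower), and 2010 in the 24 h libraries alone (1133 higher, 877 lower). Of the called genes 56.2% were higher with the GC trend removed, against 62.7% with TMM and 64.1% with RLE. Same-numbered libraries with DC and IFN and with DC had correlations of 0.094, -0.302 and -0.468. None of the 3 IFN libraries correlated best with its own number. These correlations cover all tested genes, and do not settle whether libraries of 1 number share an effect. With DC and IFN, IFN without a chelator, and TEPA and IFN, the third library held the lowest share of the 228 genes (2.74, 2.98 and 2.82%). The cause of this was not tested. The replicate block gave 554 called genes (450 higher, 104 lower), or 1721 (1088 higher, 633 lower) with the GC trend removed as well. For the difference of DC minus no chelator, DESeq2 called 2 genes, both lower and past 2-fold, SERF1A, which has near-identical copies, and PTCD1, with 0 counts in several libraries. For DC minus TEPA, DESeq2, the 24 h libraries and the block each called 1 gene, lower and past 2-fold. The GC trend removed called 5 (3 higher, 2 lower, 2 past 2-fold), and with the replicate block 5 (5 lower, 3 past 2-fold). ATF3 passed in that difference with the block, without and with the GC trend removed (adjusted p 0.0292 and 0.00328, against 1.0 in edgeR's test of all libraries). In the 24 h libraries alone higher members numbered 4 for copper, 3 for zinc, 4 for neurotrophin genes, 7 for the constitutive proteasome, 5 for p53 targets and 3 for chaperones, and DESeq2 called 6 mitotic genes lower and 5 p53 targets higher. Every change of sign concerned an uncalled value near 0. With the GC trend removed, without and with the block, JAK1 was 0.01 and 0.01, IFNGR1 0.08 and 0.08, CD276 -0.06 and -0.04, HMOX1 -0.07 and -0.1, and HAND2 -0.14 and -0.13. Leaving out 1 library gave -0.1 to 0.03 for IFNGR1 and -0.3 to 0.42 for HMOX1. In the difference with and without a chelator, CD274 was 0.01 with RLE and with DESeq2, and B2M -0.08 with the GC trend removed, also under the block. Leaving out 1 library gave -0.27 to 0.24 for CD274, -0.03 to 0.16 for B2M and -0.02 to 0.28 for GBP2, and -0.42 to 0.08 for CD274 against TEPA. The cause of these changes was not tested.

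With 3 libraries a group, the difference of effects had a median SE of 0.25 log2 units, against 0.18 for the effect with DC, so small differences were not detectable. Folds of genes with 0 to 3 counts in DC are limited by depth.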

Other observations

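Further lists were counted in DC-treated cells given IFN, beside 6.16% of all tested genes called higher and 3.66% called lower. With the GC trend removed, 1857 of all tested genes were higher and 1446 lower. Of 28 p53 targets 3 rose and 1 fell, or 5 and 3 with the GC trend removed, with FAS at 2.73, DDB2, a damage-recognition protein, at 0.61, TNFRSF10B, a death receptor, at 0.47 and ZMAT3, an RNA-binding p53 target, at -0.82 on the log2 scale. Of 20 endoplasmic reticulum chaperones 1 rose, against 3 in DESeq2 and 4 with the GC trend removed, and CALR stood at 554, 602 and 716 CPM with DC and IFN, against 477, 604 and 386 CPM with DC, with overlapping groups and an adjusted p of 0.486 in edgeR's test. Of 24 cholesterol synthesis genes edgeR called 0, with 3 at an unadjusted p under 0.05, DESeq2 called 2 higher and limma-voom 1 higher, and 3 were higher with the GC trend removed. Of 20 synaptic vesicle genes 1 rose and 0 fell, or 3 and 2 with the GC trend removed. Of 5 replication-dependent histone genes 1 rose, or 0 with the GC trend removed. Of 13 housekeeping genes 2 rose and 0 fell, or 2 and 2 with the GC trend removed, 1 of the rises being B2M.

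LINC00641, chosen after its values were seen, fell in all 3 settings. It stood at 14.0, 15.5 and 12.5 CPM with DC and IFN, against 134.6, 119 and 146 CPM with DC. IFN without a chelator gave 12.7, 16.9 and 14.6 CPM, against 148, 125 and 150.1 CPM in untreated cells. With TEPA and IFN it stood at 11.7, 16.1 and 10.6 CPM, against 138, 101 and 131 CPM with TEPA. The difference of the effect with DC minus that without a chelator was 0.00 (95% interval -0.50 to 0.51), and minus that with TEPA 0.02 (-0.48 to 0.52).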
